A study of Mus musculus with 6 samples.

Results

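Described here are 31 genes of the mevalonate and cholesterol pathway and of protein prenylation, the lipid modification through which RhoA and related small GTPases reach membranes. They were chosen by name, with earlier results of these data known. Each of the 31 symbols matched 1 row of a deposited table of 55487 genes by its Ensembl identifier in GENCODE M21, on build GRCm38. All 31 passed the filter on low counts, which left 12930 genes for testing. The set is named for synthesis and uptake, but it holds no lipoprotein receptor, so uptake is described below only through a list of neighbouring genes.

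The study sequenced RNA from RAW264.7 cells, an established mouse macrophage line that can form osteoclasts, to ask how the loss of RhoA in macrophages bears on bone destruction in rheumatoid arthritis. Every sample carried the label RANKL/M-CSF, a pair of cytokines used to turn macrophages into osteoclasts. The 3 control samples had the genotype label wt and were called untreated in the design text. The 3 others had the genotype label RhoA knockout and were titled SMART-Cas9. All 6 came from 1 cell line, and there was no group given Cas9 alone, so Cas9 and the edit cannot be told apart. Nothing says that replicates were grown separately, so the p-values reflect the scatter among these libraries, which may be technical.

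Library totals ran from 60198645 to 81830819 counts. Replicate 3 stood apart in both groups, with a chi-square per degree of freedom of 96.4 and 108.5 against the other controls and of 87.6 and 110.1 against the other libraries labelled knockout, while replicates 1 and 2 differed by 21.9 and 28 within their groups. Rhoa, the targeted gene, had counts of 1655, 1510 and 1440 in the controls, against 2805, 2670 and 2395 in the libraries labelled knockout. It was therefore not lower in the latter (log2 fold change 0.41 ± 0.12, SE, n = 3 each; edgeR adjusted p = 0.0136, or 0.0645 without control replicate 1 and 0.0741 without knockout replicate 1). Higher and lower therefore refer throughout to libraries with the RhoA knockout label, compared with controls. Of 10 macrophage markers 9 were tested, of which 3 were higher and 5 lower. That is 88.9% called at an edgeR adjusted p under 0.05, against 43.2% of all 12930 genes tested. The list summed to 18210 to 20060 CPM (counts scaled to a common library size) in the controls and 81120 to 113700 CPM in the others. Most of that sum was 1 gene, Lyz2, at 16827 and 88257 CPM, while Itgam was lower by a log2 fold change of -2.01 and Fcgr1 by one of -1.91. Of 10 osteoclast markers Calcr and Oscar were at 0 in every library, and the summed level of the list was 24.3 to 27.7 CPM in the controls and 27.3 to 27.5 CPM in the others. Of the 7 tested, 71.4% were called, against 43.2% of all genes. Among them 2 were higher (Ctsk at 1.10 and Atp6v0d2 at 0.62 on the log2 scale) and 3 lower (Mmp9 at -2.06, Acp5 at -1.43 and Dcstamp at -0.77). Markers of fibroblasts, B cells, epithelium, endothelium and hepatocytes summed to at most 1.44 CPM a list in any library, and those of T cells to at most 3.31 CPM. Mitochondrially encoded genes summed to 72370 to 83400 CPM in the controls and 99630 to 101000 CPM in the others. Of these 9 genes 6 were higher and 2 lower (88.9% called, against 43.2% of all genes). Among them mt-Nd1 and mt-Cytb had log2 fold changes of 4.29 and 3.81, and mt-Co1 had one of -1.32. The part of macrophage state or RNA composition in the results below was not tested.

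The mevalonate pathway turns acetyl-CoA into isoprenoid diphosphates, which either join to squalene and become cholesterol or are kept as farnesyl and geranylgeranyl diphosphate, the lipids that prenyltransferases attach to a cysteine near the end of Ras, Rab and other small GTPases. RhoA itself is a geranylgeranylated protein. The transcription factor SREBP-2, encoded by Srebf2, raises the genes of the pathway when membranes hold little cholesterol. Its escort protein SCAP carries it out of the endoplasmic reticulum, where the INSIG proteins hold it back when sterols are plentiful. In osteoclasts the pathway is known as the target of nitrogen-containing bisphosphonates, which inhibit farnesyl diphosphate synthase.

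SREBP-2 acts on promoters with the factors NF-Y and Sp1, so the promoters of 4 members are shown because they span the directions found below. Mvd and Nsdhl rose, Ggps1 fell, and Hmgcs1 did not pass the test. Each is the RefSeq window of GRCm38.p6 from 250 bases before to 50 after the transcription start, 5′ to 3′ on the strand of the gene. Capitals mark the NF-Y letters CCAAT on either strand, and in Hmgcs1 also the letters of a sterol regulatory element.
Mvd, chr8:122443373-122443672, minus strand: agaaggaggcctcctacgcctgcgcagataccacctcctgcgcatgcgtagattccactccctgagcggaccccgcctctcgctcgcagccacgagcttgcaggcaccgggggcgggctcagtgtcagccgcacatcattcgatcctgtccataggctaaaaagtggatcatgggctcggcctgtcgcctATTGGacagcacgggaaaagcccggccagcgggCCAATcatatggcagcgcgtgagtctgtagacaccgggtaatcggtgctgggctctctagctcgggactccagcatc
Nsdhl, chrX:72918271-72918570, plus strand: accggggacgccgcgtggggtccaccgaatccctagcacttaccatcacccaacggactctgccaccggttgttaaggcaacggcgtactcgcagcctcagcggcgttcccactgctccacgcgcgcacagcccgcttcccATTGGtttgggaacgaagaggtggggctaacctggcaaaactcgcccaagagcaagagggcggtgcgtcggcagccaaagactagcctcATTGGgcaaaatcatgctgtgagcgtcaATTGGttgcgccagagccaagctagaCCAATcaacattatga
Ggps1, chr13:14063439-14063738, minus strand: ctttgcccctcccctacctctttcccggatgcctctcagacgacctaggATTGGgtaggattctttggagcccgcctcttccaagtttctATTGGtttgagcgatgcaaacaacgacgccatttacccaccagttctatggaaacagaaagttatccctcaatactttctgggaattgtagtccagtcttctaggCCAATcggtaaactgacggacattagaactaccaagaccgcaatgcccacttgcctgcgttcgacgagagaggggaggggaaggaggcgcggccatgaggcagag
Hmgcs1, chr13:119690101-119690400, plus strand: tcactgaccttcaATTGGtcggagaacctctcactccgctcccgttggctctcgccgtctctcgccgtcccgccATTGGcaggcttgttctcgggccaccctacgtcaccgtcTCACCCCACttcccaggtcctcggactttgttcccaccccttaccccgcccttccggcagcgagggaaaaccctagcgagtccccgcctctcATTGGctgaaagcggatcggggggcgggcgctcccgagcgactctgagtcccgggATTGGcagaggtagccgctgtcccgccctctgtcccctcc
Such windows were found for 25 of the 31 members. The other 6 were Fdps, Fdft1, Sqle, Stard4, Fnta and Pggt1b, whose promoters were therefore not searched for any motif. Of these Fdps, Fdft1 and Sqle rose. The letters CCAAT, searched on both strands, were in 20 of the 35 windows of the 25 members, or 57.1%, and in 37.41% of all 32851 windows. By gene, 20 of the 25 members and 41.06% of all 27025 genes had them in at least 1 window. Of the 7 rising members with a window, 6 held them. The Sp1 letters GGGCGG, on both strands, were in 27 of 35 member windows, or 77.1%, and in 35.66% of all windows (23 of 25 members and 38.2% of all genes). The sterol regulatory element was searched as TCACNCCAC on both strands and was found in 1 member, Hmgcs1, beginning 137 bases before the start, which is 2.9% of member windows against 1.24% of all windows. The E-box letters CACGTG, which read the same on both strands, were in windows of 6 members (Dhcr7, Hsd17b7, Insig1, Rce1, Sc5d and Scap), none of which rose. That is 7 of 35 member windows, or 20%, against 7.15% of all windows. Each motif was counted without regard to the others, and a match of letters is only a description of the window.

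All 10 members that rose were enzymes of the pathway. Of 19 enzymes from the thiolase Acat2 to the last reductase Dhcr7, 10 rose, 1 fell and 8 did not pass the test, with a median log2 fold change of 0.56. Of the 5 genes of SREBP control and sterol transport 0 rose and 2 fell, with a median of -0.39 (0 higher and 3 lower at an unadjusted edgeR p under 0.05, and 0 in either direction by DESeq2). Of the 7 prenylation enzymes 0 rose and 4 fell, with a median of -0.49 (0 higher and 4 lower at an unadjusted p under 0.05, and 0 and 2 by DESeq2). The enzyme that fell was Ggps1, which makes geranylgeranyl diphosphate, the lipid that RhoA carries. Among the 12930 genes tested in all, 43.2% were called at an adjusted p under 0.05 by edgeR (21% higher, 22.3% lower), around a median of -0.03. The 31 members together had 10 higher, 7 lower and 14 not called. In 20 of them the groups of 3 libraries did not overlap, 11 above and 9 below the controls, against 55.8% of all genes. Without both libraries of replicate 3 the members had 10 higher and 6 lower, and the enzymes among them 9 higher and 3 lower. Sqle then lost its call, while Hmgcs1 (-0.781) and Hsd17b7 (-0.785) were called lower (edgeR adjusted p = 0.042 and 0.0297). Rce1, a prenylation gene, was then called higher (0.595, edgeR adjusted p = 0.0267). The median of the 31 members, -0.12, turned to 0.05 when library totals alone set the scale and to 0.09 with a length correction. Library totals alone also moved the median of all genes to 0.15 and the share of calls that were higher from 48.5% to 59.8%. In bulk RNA, fewer cells of a kind and less RNA per cell cannot be told apart.

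**Figure D1:**
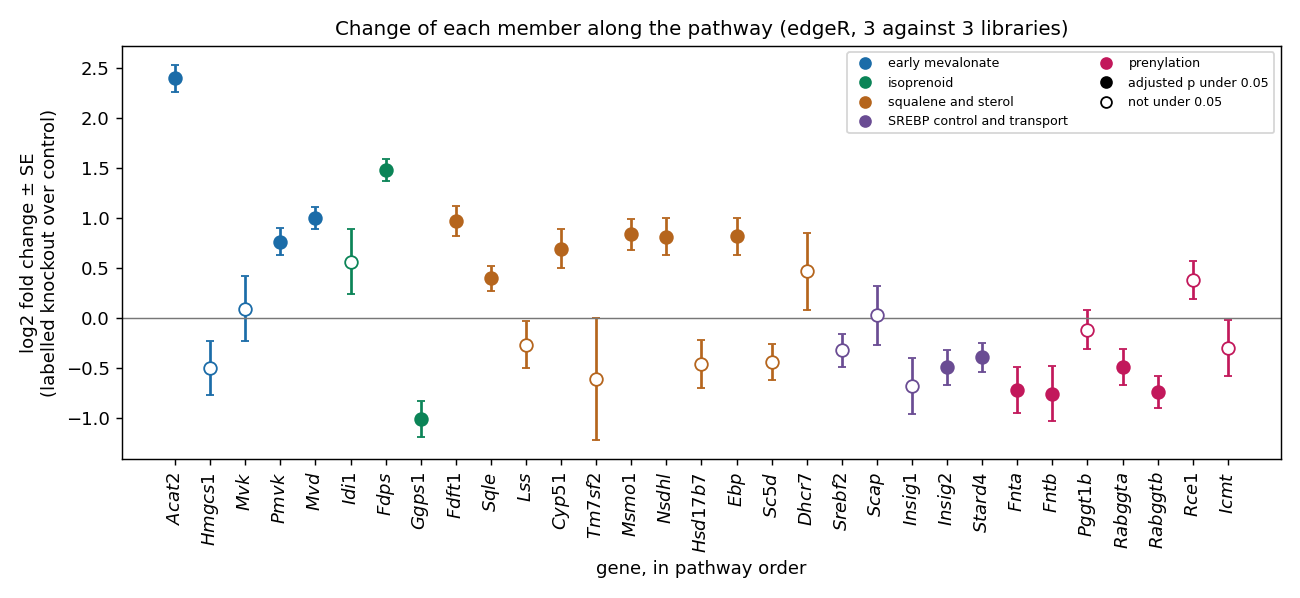
The log2 fold change of each of the 31 members (vertical axis, labelled knockout over control, bars are SE, n = 3 libraries each) in pathway order (horizontal axis). Filled points had an edgeR adjusted p under 0.05. Of the filled points among the 19 enzymes, 10 lie above 0 and 1, Ggps1, lies below, while all 6 filled points among SREBP control, transport and prenylation genes lie below 0.

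Of the 10 rising enzymes 8 kept their call under all 18 other settings, Cyp51 under 17 and Sqle under 13. Of the 6 genes called lower outside the enzymes, Rabggtb kept its call under 18, Fnta under 14, Insig2 under 10, Fntb under 8, Rabggta under 7 and Stard4 under 4, with no change of sign in any of the 6. With a length correction 10 enzymes were still called higher, and with any 1 library left out 8 to 10 were. Without control replicate 3 or without knockout replicate 3 the enzymes called lower were 2 rather than 1. The count of members called lower went from 7 to 3 or 4 with any 1 library left out, to 3 with DESeq2 and to 2 with library totals alone. Length matters because short genes lay higher in general. When genes were split by exon length into 4 equal groups, the shortest, at a median of 1160 bp, had a median log2 fold change of 0.31, and the longest, at 8520.5 bp, one of -0.435.

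Among the early enzymes, Acat2, the cytosolic thiolase that joins acetyl-CoA units at the entry of the pathway (chromosome 17, 12942890 to 12960747, minus strand), had the largest change of all members. It stood at 10.7, 9.12 and 7.92 CPM in the controls and at 48.3, 46.6 and 51.8 CPM in the libraries labelled knockout. The groups lie far apart, with a log2 fold change of 2.40 ± 0.14 (SE), a 5.28-fold rise (adjusted p = 9.82e-08). The size is uncertain because Acat3, a near-identical copy, held up to 30.2% of the Acat2 count in a library. In addition, 445 bp of the Acat2 transcript match Tcp1, a chaperonin gene. Tcp1 held 4424 to 9784 counts a library against 467 to 4167 for Acat2, and the part of Tcp1 reads in the Acat2 count was not tested. Acat3 had a log2 fold change of 1.90 ± 0.30 and Tcp1 of 0.56 ± 0.10. With the counts of Acat2 and Acat3 added together the value was 2.33.

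Mvd, which decarboxylates mevalonate diphosphate to isopentenyl diphosphate, stood at 17.7, 15.2 and 17.4 CPM in the controls and at 33.9, 32.6 and 34.0 CPM in the others. Its 3 labelled knockout libraries were all close to 2-fold above the controls (log2 fold change 1.00 ± 0.11, SE; adjusted p = 2.35e-05). Pmvk, the phosphomevalonate kinase 1 step before it, went from 15.99, 13.2 and 13.7 CPM to 22.8, 22.4 and 27.4 CPM. All 3 labelled knockout libraries lay above the controls here too (0.76 ± 0.14; adjusted p = 0.000698), and with the length correction the log2 fold change was 0.44 (adjusted p = 0.0154). These are among the shortest members, with 1859 bp of exon in Mvd and 1713 bp in Pmvk.

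The other early enzymes did not pass the test. Hmgcs1, the synthase of hydroxymethylglutaryl-CoA and a classical SREBP-2 target with the promoter shown above, stood at 5.50, 5.60 and 3.14 CPM in the controls and at 2.75, 3.68 and 3.62 CPM in the others. The groups overlap because control replicate 3 is as low as the other group (log2 fold change -0.50 ± 0.27, SE; adjusted p = 0.154). Without that library the value was -0.73 with an adjusted p of 0.0333. Mvk, the mevalonate kinase, overlapped as well, at 1.67 to 3.78 CPM in the controls and 2.46 to 3.14 CPM in the others, and its sign turned with the length correction.

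**Figure D2:**
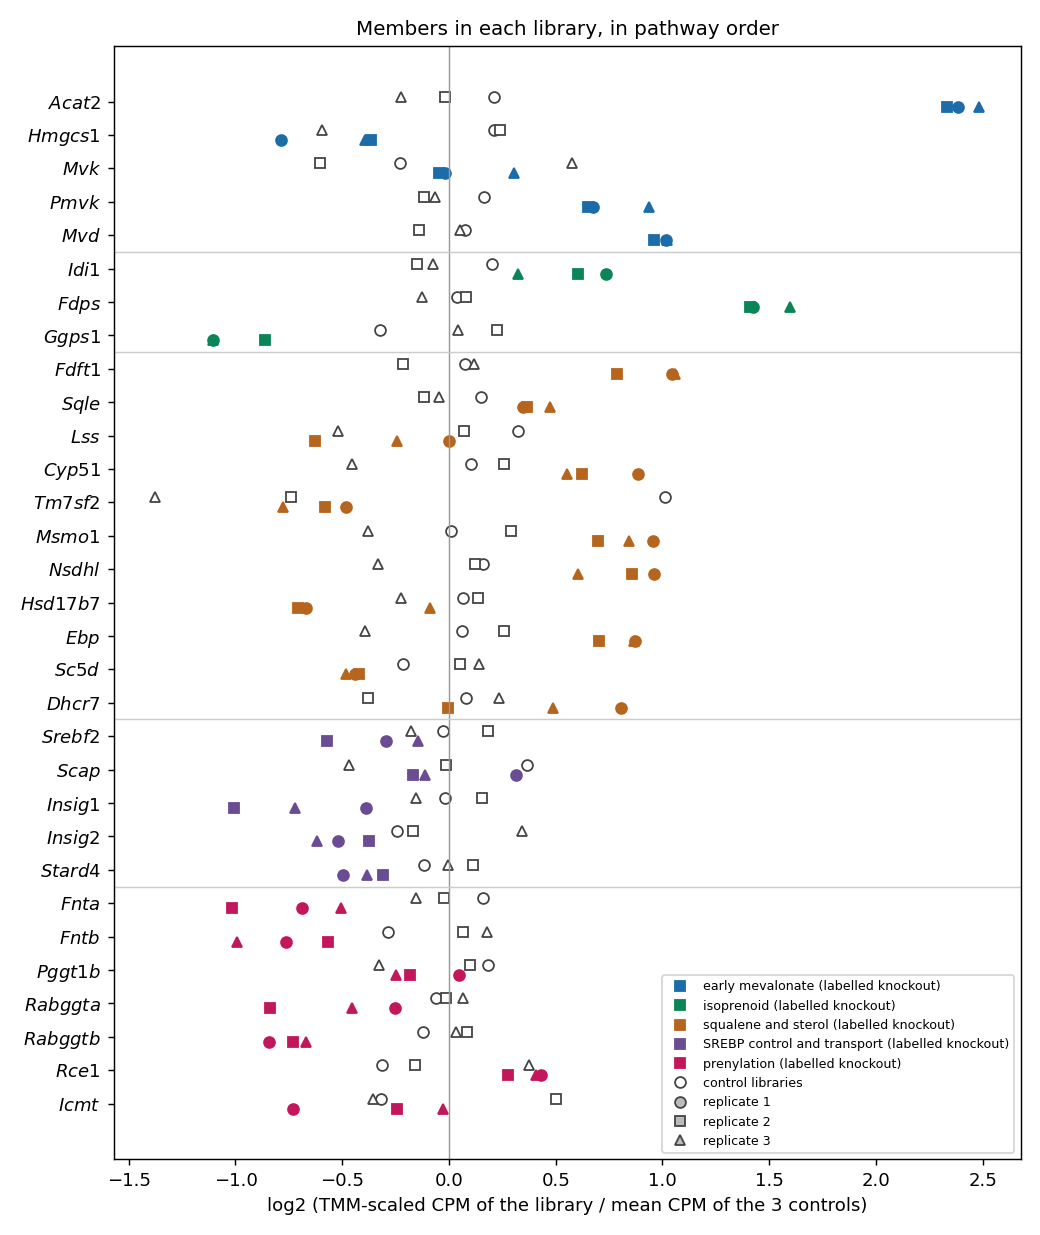
The level of each of the 31 members in each of the 6 libraries (horizontal axis, log2 of TMM-scaled CPM over the mean of the 3 controls) in pathway order (vertical axis). Open symbols are control libraries and filled symbols are libraries labelled knockout, with 1 symbol shape per replicate number. Acat2 and Fdps lie farthest to the right and Ggps1 farthest to the left of the enzymes whose groups do not overlap.

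At the branch point of the isoprenoids, the 2 synthases moved in opposite directions. Fdps, the farnesyl diphosphate synthase (chromosome 3, 89093588 to 89101959, minus strand), stood at 186, 191 and 166 CPM in the controls and at 486, 481 and 549 CPM in the libraries labelled knockout. It rose 2.79-fold with a wide gap between the groups (log2 fold change 1.48 ± 0.11, SE; adjusted p = 1.03e-06). Its pseudogene copies Gm3571 and Gm5873 held at most 7.68% and 1.7% of its count, and their own log2 fold changes were 1.58 and 1.59. Gm43738, annotated as protein coding, shares 26.7% of the Fdps exon length on the same strand and held at most 2.44% of its count. With the counts of all 5 matching genes added, the value of Fdps was 1.48.

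Ggps1, the geranylgeranyl diphosphate synthase (chromosome 13, 14050659 to 14063488, minus strand), stood at 9.72, 14.2 and 12.5 CPM in the controls and at 5.64, 6.68 and 5.65 CPM in the others. All 3 labelled knockout libraries lay below all controls, at 0.494 of the control level (log2 fold change -1.02 ± 0.18, SE; adjusted p = 0.00065). The call was kept under all 18 alternatives, at -1.15 to -0.84. Of its exons 5.4% overlap those of Arid4b on the opposite strand, which had a log2 fold change of -0.22 ± 0.16. Arid4b held 453 to 770 counts a library against 430 to 832 for Ggps1. The part of Arid4b reads in the Ggps1 count was not tested. Idi1, the isomerase that supplies the starter unit, was low, at 1.13 to 1.44 CPM in the controls and 1.56 to 2.08 CPM in the others. Its groups did not overlap, but it did not pass the test (0.56 ± 0.32; adjusted p = 0.189), and its copy Gm13502 held up to 18.7% of its count.

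In the sterol branch 6 of 11 enzymes rose, 0 fell and 5 did not pass the test (54.5% called, against 43.2% of all genes). Of the 11, 1 was lower at an unadjusted edgeR p under 0.05, and 0 were lower by DESeq2. Fdft1, the squalene synthase and 1st committed enzyme of the branch, stood at 9.4997, 7.77 and 9.79 CPM in the controls and at 18.6, 15.6 and 18.8 CPM in the others. It rose 1.96-fold with no overlap (log2 fold change 0.97 ± 0.15, SE; adjusted p = 0.000244). This value is uncertain, since 18.3% of the exon length of Fdft1 is shared with Ctsb on the opposite strand. Ctsb, a lysosomal protease, held 472385 to 1242309 counts a library against 455 to 1527 for Fdft1. Ctsb itself rose, by 0.82 ± 0.12 on the log2 scale, and its part in the Fdft1 count was not tested.

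Msmo1, Nsdhl and Cyp51, which act in stripping methyl groups from lanosterol, all rose. Msmo1, the methylsterol oxidase, stood at 29.2, 35.5 and 22.3 CPM in the controls and at 56.3, 47.1 and 52 CPM in the others. It was the most abundant enzyme of the sterol branch per exon length in both groups (log2 fold change 0.84 ± 0.16, SE; adjusted p = 0.000962). Nsdhl, the sterol dehydrogenase that acts after Msmo1, went from 6.62, 6.46 and 4.72 CPM to 11.5, 10.7 and 9.01 CPM. Its promoter, shown above, holds 4 copies of the CCAAT letters, and its groups did not overlap (0.81 ± 0.19; adjusted p = 0.0038). Cyp51, the lanosterol demethylase, went from 9.01, 10.05 and 6.13 CPM to 15.5, 12.9 and 12.3 CPM (0.69 ± 0.19; adjusted p = 0.0114, or 0.064 without knockout replicate 1). Of its exons 3.8% overlap those of Akap9 on the opposite strand, which did not pass the test (-0.17 ± 0.12). Akap9 held 1149 to 1663 counts a library against 361 to 1271 for Cyp51, and the part of Akap9 reads was not tested. Hsd17b7, the ketoreductase of the same demethylation, did not rise with them, at 4.34 to 5.59 CPM in the controls and 3.11 to 4.77 CPM in the others (-0.46 ± 0.24; adjusted p = 0.144, or 0.045 with a value of -0.68 without knockout replicate 3).

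Ebp, the sterol isomerase that follows, stood at 6.92, 7.93 and 5.06 CPM in the controls and at 12.1, 10.8 and 12.1 CPM in the others, again without overlap (log2 fold change 0.82 ± 0.18, SE; adjusted p = 0.00343). Sqle, the squalene epoxidase and a rate-limiting step of the sterol branch, changed least of the called enzymes. It went from 18.02, 14.98 and 15.7 CPM to 20.6, 20.9 and 22.5 CPM, a 1.31-fold rise (0.40 ± 0.12; adjusted p = 0.0226). That call was lost without control replicate 2 (0.101) and without knockout replicate 1, 2 or 3 (0.0538, 0.0637 and 0.0599). The groups of Sqle did not overlap.

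The end of the branch did not rise. Sc5d, the desaturase before the last reduction, stood at 6.05, 7.29 and 7.75 CPM in the controls and at 5.19, 5.26 and 5.04 CPM in the others. All 3 labelled knockout libraries were below the controls, but the test was not passed (log2 fold change -0.45 ± 0.18, SE; adjusted p = 0.0639). Dhcr7, the last reductase, was at 0.82 to 1.26 CPM in the controls and 1.06 to 1.86 CPM in the others, and the groups overlapped. Lss, the cyclase that makes lanosterol, overlapped too, at 5.40 to 9.68 and 5.0001 to 7.74 CPM, and its sign turned with the length correction. Tm7sf2, a sterol reductase, was below 2 CPM in every library, and its value rested on control replicate 1, at 1.96 CPM against 0.373 to 0.695 CPM in the other 5 libraries. It shares 12.1% of its exon length with Vps51 on the same strand, which held more counts than Tm7sf2 in every library.

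Levels can be compared between genes only per length, here as CPM per kb of exon. Fdps was far above the rest at 43.05 in the controls and 120.1 in the libraries labelled knockout. Mvd and Pmvk followed in the controls at 9.01 and 8.33, and Acat2 moved from the 5th place, at 3.64, to the 2nd, at 19.2. Ggps1, which draws on the product of Fdps, moved from the 8th place at 2.57 to the 11th at 1.27. Dhcr7 and Tm7sf2 were lowest in both groups, at 0.144 to 0.254. The order of neighbours with close values, such as Mvd and Pmvk in the controls, was not tested.

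**Figure D3:**
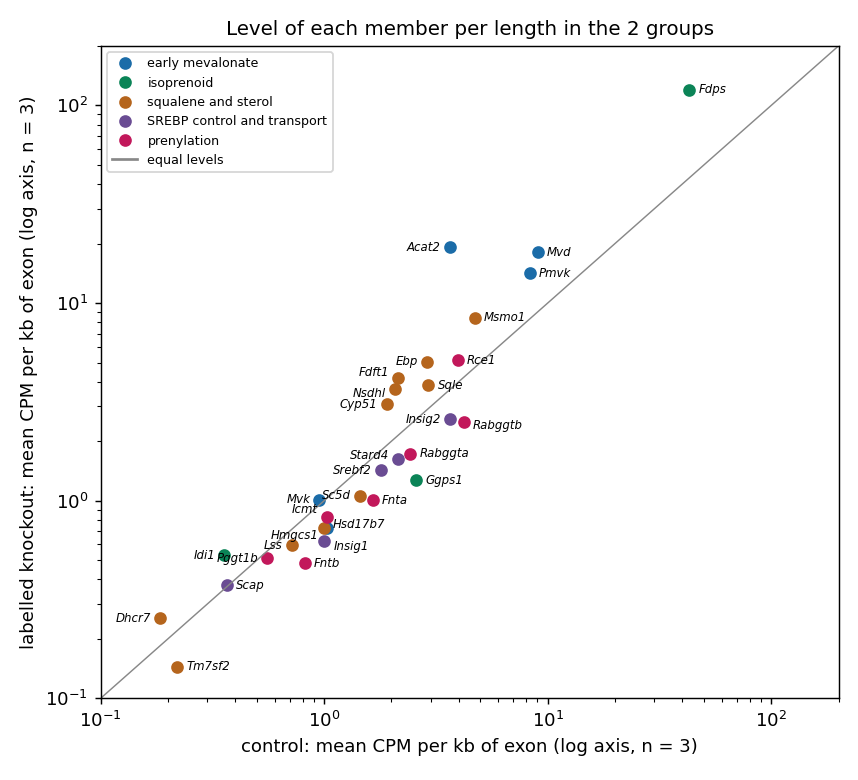
The mean level of each member per kb of exon in the control libraries (horizontal axis, log scale, n = 3) and in the libraries labelled knockout (vertical axis, log scale, n = 3), with a line of equal levels. Fdps, Acat2, Mvd, Pmvk and Msmo1 lie above the line at the abundant end, and Ggps1 and 6 of the 7 prenylation genes lie below it.

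No regulator of the pathway passed the test upwards. Srebf2, which encodes SREBP-2, stood at 12.6, 14.6 and 11.3 CPM in the controls and at 10.5, 8.65 and 11.6 CPM in the others. Its groups overlapped (log2 fold change -0.33 ± 0.16, SE; adjusted p = 0.128). Scap, the sterol sensor that escorts it, was nearly equal at 2.73 ± 0.772 and 2.78 ± 0.529 CPM (SD, n = 3). Insig1, a retention protein and itself a classical SREBP target, stood at 3.06, 3.45 and 2.78 CPM in the controls and at 2.36, 1.54 and 1.88 CPM in the others. It lay below the controls in all 3 labelled knockout libraries without passing the test (-0.68 ± 0.28; adjusted p = 0.0681, and 0.0349 with the length correction).

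Insig2, its relative, stood at 10.7, 11.3 and 16.1 CPM in the controls and at 8.86, 9.81 and 8.28 CPM in the others. It passed the test (log2 fold change -0.50 ± 0.18, SE; adjusted p = 0.0405), with the gap set largely by control replicate 3. Without that library the value was -0.29 with an adjusted p of 0.178, and without knockout replicate 1, 2 or 3 the adjusted p was 0.091, 0.0532 and 0.124. Stard4, a sterol carrier of the cytosol that is also induced by SREBP-2, went from 11.003, 12.9 and 11.9 CPM to 8.46, 9.63 and 9.15 CPM. Its call (-0.39 ± 0.15; adjusted p = 0.0454) was lost without any 1 of the 6 libraries, at 0.0562 to 0.119, and the value was -0.22 with the length correction.

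The prenylation enzymes form 3 transferases and the 2 enzymes that finish the modified end. Fnta is the subunit shared by farnesyltransferase and geranylgeranyl transferase I, the latter being the enzyme that modifies RhoA. It stood at 5.56, 4.90 and 4.48 CPM in the controls and at 3.10, 2.46 and 3.51 CPM in the libraries labelled knockout, with no overlap (log2 fold change -0.72 ± 0.23, SE; adjusted p = 0.0238). The adjusted p was 0.0903 without control replicate 1, and 0.0519 and 0.0794 without knockout replicate 1 or 2. Pggt1b, the catalytic subunit of geranylgeranyl transferase I, did not pass the test. It was at 7.39, 6.97 and 5.19 CPM in the controls and at 6.74, 5.75 and 5.48 CPM in the others (-0.12 ± 0.20; adjusted p = 0.653), and the sign turned to 0.42 with the length correction, since its exons span 11749 bp.

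Fntb, the catalytic subunit of farnesyltransferase, was at 2.68, 3.42 and 3.70 CPM in the controls and at 1.93, 2.20 and 1.64 CPM in the others. The groups did not overlap (log2 fold change -0.76 ± 0.27, SE; adjusted p = 0.0406). The adjusted p was 0.0857 and 0.115 without control replicate 2 or 3, and 0.0827 and 0.108 without knockout replicate 1 or 3. It shares 6.4% of its exon length with Churc1 on the same strand, which was not called (0.56 ± 0.27). Churc1 held 146 to 536 counts a library against 125 to 218 for Fntb. The part of Churc1 reads was not tested.

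Both subunits of the Rab transferase were lower. Rabggtb, the catalytic subunit, stood at 9.36, 10.8 and 10.4 CPM in the controls and at 5.68, 6.14 and 6.40 CPM in the others. It was at 0.596 of the control level, with all 3 labelled knockout libraries below the controls (log2 fold change -0.75 ± 0.16, SE; adjusted p = 0.00233), and it was called under all 18 alternatives. Rabggta, its partner, went from 8.80, 9.09 and 9.60 CPM to 7.70, 5.12 and 6.69 CPM (-0.49 ± 0.18; adjusted p = 0.0467). That call was lost without control replicate 1, 2 or 3 (0.0845, 0.079 and 0.104) and without knockout replicate 2 or 3 (0.147 and 0.0854).

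The finishing enzymes did not pass the test. Rce1, the protease that removes the last residues after prenylation, stood at 6.64, 7.38 and 10.7 CPM in the controls and at 11.1, 9.98 and 10.9 CPM in the others. Control replicate 3 lies among the other group (log2 fold change 0.37 ± 0.19, SE; adjusted p = 0.135), and without that library the value was 0.61 with an adjusted p of 0.0138. Icmt, the methyltransferase that caps the end, overlapped at 4.24 to 7.67 CPM in the controls and 3.27 to 5.32 CPM in the others (adjusted p = 0.416).

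**Figure D4:**
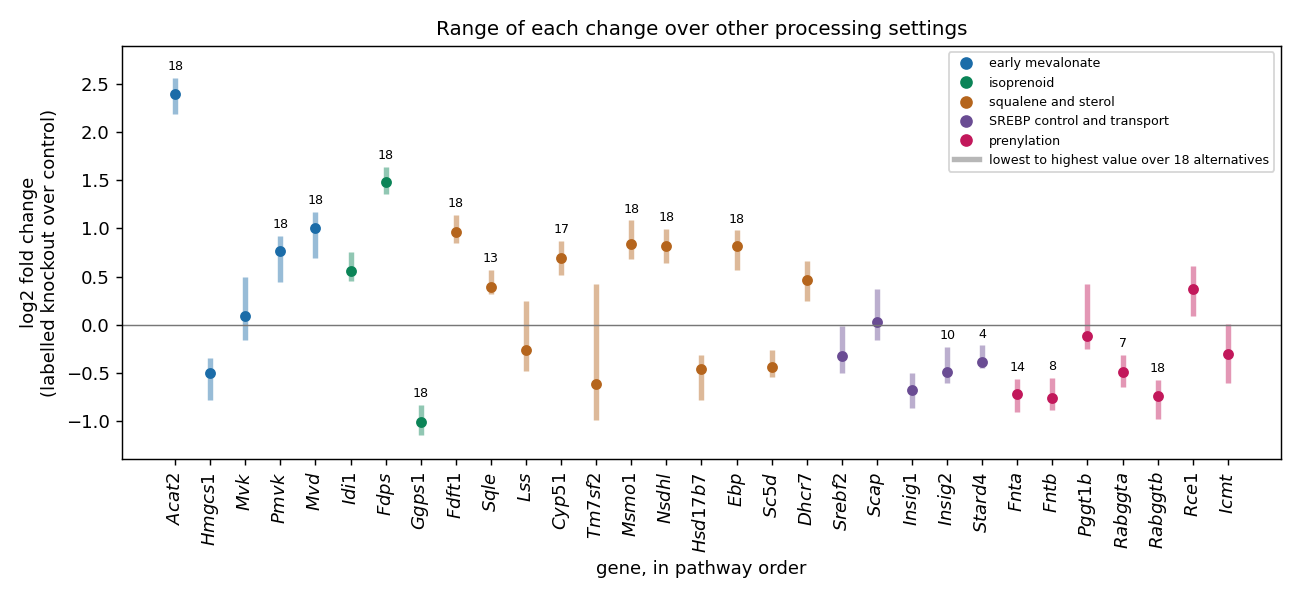
The log2 fold change of each member (vertical axis, points) with its lowest and highest value over 18 other settings (bars, 17 for Tm7sf2), in pathway order (horizontal axis). The number above a called member counts the settings that kept its direction and call. It is 18 for Acat2, Pmvk, Mvd, Fdps, Ggps1, Fdft1, Msmo1, Nsdhl, Ebp and Rabggtb, and 4 for Stard4.

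Genes next to the pathway were taken from lists, in which each count is of the genes tested. Of 5 further enzymes of sterol and ketone metabolism 4 rose and 0 fell (80% called), also at an unadjusted p under 0.05, with a median of 0.87. They include Erg28, the scaffold of the demethylating enzymes, at 5.31 and 11.01 CPM (log2 fold change 1.05 ± 0.16, SE), and Acat1, the mitochondrial thiolase, at 7.79 and 15.9 CPM (1.03 ± 0.23). Lbr, a sterol reductase of the nuclear envelope, rose by 0.63 ± 0.20, with a value of 0.38 and an adjusted p of 0.164 without knockout replicate 1, and with adjusted p of 0.0546, 0.089 and 0.0667 without control replicate 1, control replicate 3 or knockout replicate 2. Of 7 genes of acetyl-CoA and NADPH supply 4 were lower and 1 higher (71.4% called, against 43.2% of all genes). Acly, which makes cytosolic acetyl-CoA from citrate, fell from 21.7 ± 3.64 to 12.97 ± 1.39 CPM (SD, n = 3; adjusted p = 0.00181), while Idh1, a source of NADPH, rose from 28.96 ± 3.10 to 115.7 ± 2.93 CPM (adjusted p = 8.87e-08).

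Of 14 genes of SREBP processing and sterol-regulated protein degradation 4 were lower and 0 higher, which is 28.6% called against 43.2% of all genes. At an unadjusted edgeR p under 0.05, 5 were lower and 0 higher. By DESeq2 4 of the 14 were called, all lower. Ubxn4 and Syvn1, which act in protein degradation at the endoplasmic reticulum, had log2 fold changes of -1.28 and -1.21. March6, a ubiquitin ligase of that membrane, had one of -0.57 but -0.14 with the length correction (adjusted p = 0.562), and its adjusted p was 0.0505 without control replicate 1 and 0.0562 without knockout replicate 1. The list of 13 uptake and lysosomal exit genes had 5 lower and 2 higher (53.8% called), with the scavenger receptors Cd36 and Msr1 at -1.77 and -1.16, the lysosomal cholesterol exporter Npc1 at -1.82 and the acid lipase Lipa at 0.46. Of 13 genes of sterol transport and esterification 4 were lower and 2 higher, a share of 46.2% that lies near the 43.2% of all genes, with the plasma membrane sterol carrier Gramd1a at -2.05, the ester hydrolase Nceh1 at -1.32, the contact site protein Vapa at -0.86 and Stard3nl at 0.72.

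The substrates of the prenyltransferases were called in both directions. Of 14 small GTPases that carry prenyl groups, Rhoa left out, 6 were lower and 3 higher, with a median of -0.71. That is 64.3% called, against 43.2% of all genes. Rap1b fell from 93.8 ± 9.47 to 19.7 ± 0.216 CPM (SD, n = 3; adjusted p = 3.58e-08) and Rhoc, a close relative of RhoA, from 208.3 ± 16.9 to 62.5 ± 10.1 CPM (adjusted p = 8.84e-07). Rheb and Cdc42 rose by 0.99 ± 0.12 and 0.86 ± 0.10 on the log2 scale (SE). Of 10 proteins that escort or chaperone prenylated GTPases 4 rose and 3 fell (70% called, against 43.2% of all genes). Chm, which presents Rab proteins to the transferase of Rabggta and Rabggtb, fell from 2.60 ± 0.592 to 0.493 ± 0.097 CPM (SD, n = 3; adjusted p = 0.000224). Arhgdib, a GDP dissociation inhibitor of leukocytes, rose from 891.3 ± 62.8 to 2315 ± 264.8 CPM (adjusted p = 4.46e-06), Pcyox1, which breaks down prenylcysteine, by 0.96 ± 0.21, and Arhgdia by 0.55 ± 0.12, or 0.30 with the length correction (adjusted p = 0.062).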

How the data were processed

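The 6 libraries were made with an Illumina kit from Trizol-extracted total RNA, per the labels' protocols. The authors deposited whole-number counts per gene in 1 table, and the build was GRCm38, going by the submitters' processing notes. Which aligner and counter were used, whether strand was used and how multiply matching reads were handled is not given in the sources used here. Counts at multiples of 4 occurred 1.325 to 1.45 times as often as the counts beside them, for which no cause was tested. Identifiers were matched to GENCODE M21, with a symbol for 55141 and none for 346. Library totals were 60198645 to 81830819, and 3 counts correspond to 0.0336 to 0.0513 CPM.

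Groups were compared in R 4.3.3 by the quasi-likelihood test of edgeR 4.0.16 (filterByExpr, TMM, glmQLFit with the robust option, glmQLFTest), and p-values were adjusted by Benjamini-Hochberg across the 12930 genes, with 0.05 as the threshold. Every adjusted p in the text is from edgeR's quasi-likelihood test unless DESeq2 is named. CPM are TMM-scaled, and SE is the log2 fold change over the square root of F. Alternatives were DESeq2 1.42.0, other scalings, filters, a length correction (loess trend over exon length, span 0.5), counts divided by 4, a replicate block, and libraries left out. Copies were sought with blastn 2.17.0 at 95% identity over 200 bp or more, and called uncertain at 10% of the member's count. Promoter windows are from RefSeq. The procedure was tested on simulated counts in which a small share of genes changed, in both directions and with no length trend. That does not show how it behaves in data such as these, where 43.2% of genes were called. Members, lists and the rule for named genes (all members, Rhoa, and up to 4 called genes a list by p, of which some are not reported here) were chosen with earlier results of these data known. Names outside the rule are overlapping or matching genes and the markers.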

Additional observations from a re-analysis of the deposited data

How the results depend on the processing

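Each member's change was recomputed under 18 other settings, 2 of them (leaving out both libraries of replicate 3, and adding the counts of near-identical copies) chosen after the data were seen. Of 557 values, 479 kept their direction and side of the threshold, 53 kept the direction and lost the call, 9 gained one and 16 turned in sign. The count of members called lower, 7, was 3 with DESeq2, 2 with library totals alone, 4 with no filter on low counts and 3 with the replicate block. It was 3 to 6 with libraries left out. The cause of these differences was not tested. The count called higher was 8 to 11 with libraries left out. Signs turned for members that were not called. With the length correction Mvk was at -0.101 (-0.03 with the replicate block and length correction), Lss at 0.235 (0.245) and Pggt1b at 0.415 (0.424). With library totals alone Pggt1b was at 0.054. With libraries left out Mvk lay between -0.157 and 0.494, Tm7sf2 between -0.997 and 0.417, Scap between -0.159 and 0.254 and Icmt between -0.606 and 0.008. Library totals alone made 59.8% of all calls higher, against 48.5% with TMM, and moved the all-gene median from -0.03 to 0.15. Deviations of same-numbered libraries from their group means correlated at -0.006, 0.028 and 0.014 over the genes tested, so no shared deviation by number was seen. Whether same-numbered samples were paired was not established. The replicate block called 2634 genes higher and 2738 lower, against 2713 and 2879 without it. Depth limits the members under 2 CPM, such as Dhcr7, Idi1 and Tm7sf2.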

Other observations

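Other branches of the mevalonate pathway held called genes in both directions. Of 10 measured genes of the dolichol branch, which feeds protein glycosylation, 4 were higher and 2 lower in the labelled knockout libraries (60% called, against 43.2% of all genes). Dolk, the dolichol kinase, went from 1.74 ± 0.076 to 5.38 ± 0.869 CPM (SD, n = 3; edgeR adjusted p = 0.000172), Alg5 had a log2 fold change of 0.98 ± 0.12 (SE), Dpm2 of 0.71 ± 0.12 (0.41 with the length correction) and Nus1, a subunit of the prenyltransferase that builds dolichol, of -1.26 ± 0.19. Of 13 genes of the ubiquinone branch 4 were higher and 1 lower, which at 38.5% called is no more than the 43.2% of all genes. Coq7, a hydroxylase of ubiquinone synthesis, rose from 102.9 ± 4.53 to 177.6 ± 21.8 CPM (adjusted p = 0.000136), and Pdss1, which builds the prenyl tail, had a log2 fold change of 1.06 ± 0.26. Coq9 had one of 0.58 ± 0.16, with an adjusted p of 0.0507 without control replicate 2 and 0.0779 without knockout replicate 1. Coq8a was nearly absent from the controls, at 0.053 ± 0.047 CPM against 1.61 ± 0.914 CPM (adjusted p = 0.000452).

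Of 13 measured genes of fatty acid synthesis, uptake or sterol binding that SREBP-1 or SREBP-2 is known to raise, 4 were higher and 1 lower, again 38.5% called against 43.2% of all genes. Tmem97, a sterol-binding membrane protein, went from 29.4 ± 4.28 to 63.4 ± 2.08 CPM (adjusted p = 1.67e-05), Elovl1 and Fads1, an elongase and a desaturase, had log2 fold changes of 0.81 and 0.46, and Acsl3 had one of -1.49. Of 6 genes of oxysterol metabolism and sensing 3 were measured, of which 1 was higher and 2 were not called (33.3% called, against 43.2% of all genes). The gene called was Gpr183, an oxysterol receptor, which went from 2.30 ± 0.530 to 13.4 ± 0.889 CPM (adjusted p = 1.44e-06).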
